A study of Mus musculus with 8 samples.

Results

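Interleukins are secreted messengers of immune and tissue cells, and their receptors are built from chains that are often shared between ligands. The genes described here are the 83 rows of the deposited expression table whose symbol starts with Il and a digit, Il1b and Il18 left out, of 34745 rows in all. Without that exception 85 rows match. The 83 rows carry 81 symbols, since Il11ra2 stands in 3 rows, and they comprise 38 receptor chains, 34 ligands, 7 decoys or soluble inhibitors and 4 others. The name takes in a few genes that are no interleukin, such as Il4i1, an amino acid oxidase, and leaves out partner chains with other names, which are given at the end. Of the rows, 50 had enough counts to be tested, namely 33 receptor chains, 13 ligands, 3 decoys or inhibitors and Il4i1.

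The study sequenced messenger RNA of wild-type mouse kidney taken at day 14 in 8 libraries. Sham-operated kidney gave 2 libraries, kidney labelled uIRI gave 3, and kidney labelled uIRI with transplanted MSCs gave 3 (uIRI+MSC below). The abbreviation uIRI is usually read as unilateral ischaemia-reperfusion injury, where blood flow to a single kidney is stopped and restored, and MSC as mesenchymal stem or stromal cell. Neither is spelled out in the labels, which give no strain, age, dose, route or source of the cells. Whether each library is from its own animal is not stated, so p-values measure only the spread between these samples.

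Families of interleukins differ in how they signal. Most cytokines of the IL-1 family bind a receptor that recruits the shared chain encoded by Il1rap, and act through MyD88 and NF-kappaB. Most others act through Janus kinases and STAT factors, with shared chains such as gp130 (Il6st) for IL-6 and IL-11, the common gamma chain (Il2rg) for IL-2, IL-4, IL-7, IL-15 and IL-21, and Il10rb for IL-10 and IL-22. In kidney injury, alarm signals of the IL-1 family are released by damaged cells, IL-6 and IL-11 act on tubule and stroma, IL-34 binds the CSF-1 receptor of macrophages, and IL-22 acts on tubule cells through Il22ra1.

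Promoters of 5 members whose transcripts differed between uIRI and sham are shown to make the searched motifs visible. They are the 250 bases before the start given by RefSeq on GRCm38.p6, read 5′ to 3′ on the gene's strand. Capitals mark a match on either strand to TGANTCA (AP-1), TTCNNNGAA (STAT) or GGGANTTTC (NF-kappaB).
Il6, plus strand, chr5:30012864-30013113: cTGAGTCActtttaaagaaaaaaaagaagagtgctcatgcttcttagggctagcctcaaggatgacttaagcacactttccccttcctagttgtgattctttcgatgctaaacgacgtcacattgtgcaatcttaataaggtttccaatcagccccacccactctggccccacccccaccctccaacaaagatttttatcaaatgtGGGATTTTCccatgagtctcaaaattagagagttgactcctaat
Il1rn, plus strand, chr2:24336610-24336859: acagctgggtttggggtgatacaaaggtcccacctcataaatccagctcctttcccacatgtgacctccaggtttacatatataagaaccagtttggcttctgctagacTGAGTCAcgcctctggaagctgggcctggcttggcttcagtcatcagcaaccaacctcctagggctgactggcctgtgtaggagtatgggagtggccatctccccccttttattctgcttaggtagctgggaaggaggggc
Il11, minus strand, chr7:4778142-4778391: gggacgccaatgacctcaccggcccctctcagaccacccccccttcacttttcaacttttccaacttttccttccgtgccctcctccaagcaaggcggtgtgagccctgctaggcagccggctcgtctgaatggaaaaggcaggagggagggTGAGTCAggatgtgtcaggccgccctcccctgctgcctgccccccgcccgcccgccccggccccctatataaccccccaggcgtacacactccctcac
Il7r, minus strand, chr15:9529877-9530126: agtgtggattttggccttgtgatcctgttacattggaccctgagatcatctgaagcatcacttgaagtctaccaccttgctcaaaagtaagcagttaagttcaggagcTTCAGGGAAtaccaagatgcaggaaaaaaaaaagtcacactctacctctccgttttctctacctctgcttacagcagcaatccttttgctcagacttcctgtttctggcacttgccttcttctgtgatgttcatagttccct
Il22ra1, plus strand, chr4:135727909-135728158: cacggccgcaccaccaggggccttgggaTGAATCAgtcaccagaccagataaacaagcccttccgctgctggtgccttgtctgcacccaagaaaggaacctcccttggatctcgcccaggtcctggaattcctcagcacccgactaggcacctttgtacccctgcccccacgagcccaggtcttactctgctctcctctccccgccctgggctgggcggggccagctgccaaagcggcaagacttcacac
Il6 carried the AP-1 letters from position -249 and the NF-kappaB letters from position -44, counted from the start. The AP-1 letters began at -141 in Il1rn, -98 in Il11 and -222 in Il22ra1, and the STAT letters at -142 in Il7r. In the RefSeq windows, which run from 250 bases before to 50 after a start, 64 member symbols were found in 79 windows. Of the 29 members that rose in uIRI and had a window, 7 held the AP-1 letters (Il11, Il16, Il17rb, Il1a, Il1rn, Il5ra, Il6), against 8.97% of all symbols in the table of 32851 windows. Among all 64 members with a window 14 held them, so they were not limited to members that rose. The STAT letters stood in 4 of the 29 (Il12rb2, Il18r1, Il1r2, Il7r) and 11 of the 64, against 9.55% of symbols, and the NF-kappaB letters in 2 (Il6, Il16), the same 2 among the 64, against 1.29%. Of 2 fallen members with a window, Il22ra1 held the AP-1 letters. These matches are descriptions of letters, and some symbols have several windows.

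Total counts per library lay between 11592986 and 24300112, so that 3 counts, the limit that a count of 0 allows, correspond to 0.123 to 0.259 counts in 1000000. Of all counts the members took 0.0589 and 0.0652% (sham), 0.169 to 0.201% (uIRI) and 0.128 to 0.138% (uIRI+MSC). On the third principal component uIRI+MSC 3 stood apart (-62.3, against -8.3 to 15.1 for the rest). Kidney markers were present in every library. Markers of several cell types that make or sense interleukins moved with the groups, given as sums of counts scaled by TMM to a library of 1000000 (CPM below). The 8 macrophage markers, all of which rose in uIRI, summed to 193 and 232 (sham), 2704 to 4248 (uIRI) and 1524 to 2228 (uIRI+MSC). The 6 T cell markers summed to 11.4 and 12.4, 74.4 to 94.4 and 52.7 to 82.2, and all 6 rose. The 5 neutrophil markers summed to 1.07 and 3.68, 32.5 to 43.1 and 18.4 to 32.6, with Mpo at 0 in all libraries. The 4 fibroblast markers went from 160 and 213 to 1364 to 3008 and 781 to 1427, and all 4 rose. The 5 proximal tubule markers went from 14402 and 14469 to 829 to 2882 and 4270 to 5447, and all 5 fell. The 5 dendritic markers went from 26.4 and 26.7 to 162 to 241 and 119 to 148, and all 5 rose. Of the 3 eosinophil markers, which summed to 0 and 0.0921, 1.69 to 6.47 and 1.00 to 1.55, Siglecf had 1 count in sham and a count ratio of 77.4 (95% counting interval 13.8 to 3066) in uIRI, which passed (adjusted p = 0.00183), Prg2 was too low to test and Epx, the eosinophil peroxidase gene, was at 0. The 6 NK and innate lymphoid markers summed to 99.5 and 103, 80 to 82.2 and 74.5 to 110.4, most of it from Rora, which fell, while Klrb1c and Klrk1 rose and 3 did not pass. The 4 B cell markers summed to 1.36 and 3.41, 7.31 to 7.87 and 5.79 to 8.01, and only Cd79b among them passed, as higher. Mast cell markers stayed below 1. The part of these cells in the changes below was not tested, and in bulk tissue fewer cells of a type and less RNA per cell cannot be told apart.

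To see what the injury had changed by day 14, uIRI was compared with sham. Most measured interleukin genes were higher in injured kidney. Of the 50 tested, 36 rose (72.0%), 3 fell and 11 did not pass edgeR's quasi-likelihood test at an adjusted p of 0.05, while 28.3% of all 16576 tested genes rose and 26.3% fell. The median log2 change of the tested members was 2.13, against 0.06 for all tested genes. The uIRI libraries all lay above both sham libraries in 40 members (80.0%), and all below in 4 (8.0%). Of all tested genes this held for 40.6 and 36.5%. The 3 that fell were the IL-22 receptor gene Il22ra1, the T and NK cell growth factor gene Il15 and the IL-11 receptor gene Il11ra1. By role, 8 of 13 ligands rose and Il15 fell (median 2.72), 24 of 33 receptor chains rose and 2 fell (median 2.06), and all 3 decoys or inhibitors tested rose (median 3.79). Members enter the test only with enough counts, so those found in injured kidney alone are counted and those absent throughout are not.

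**Figure D1:**
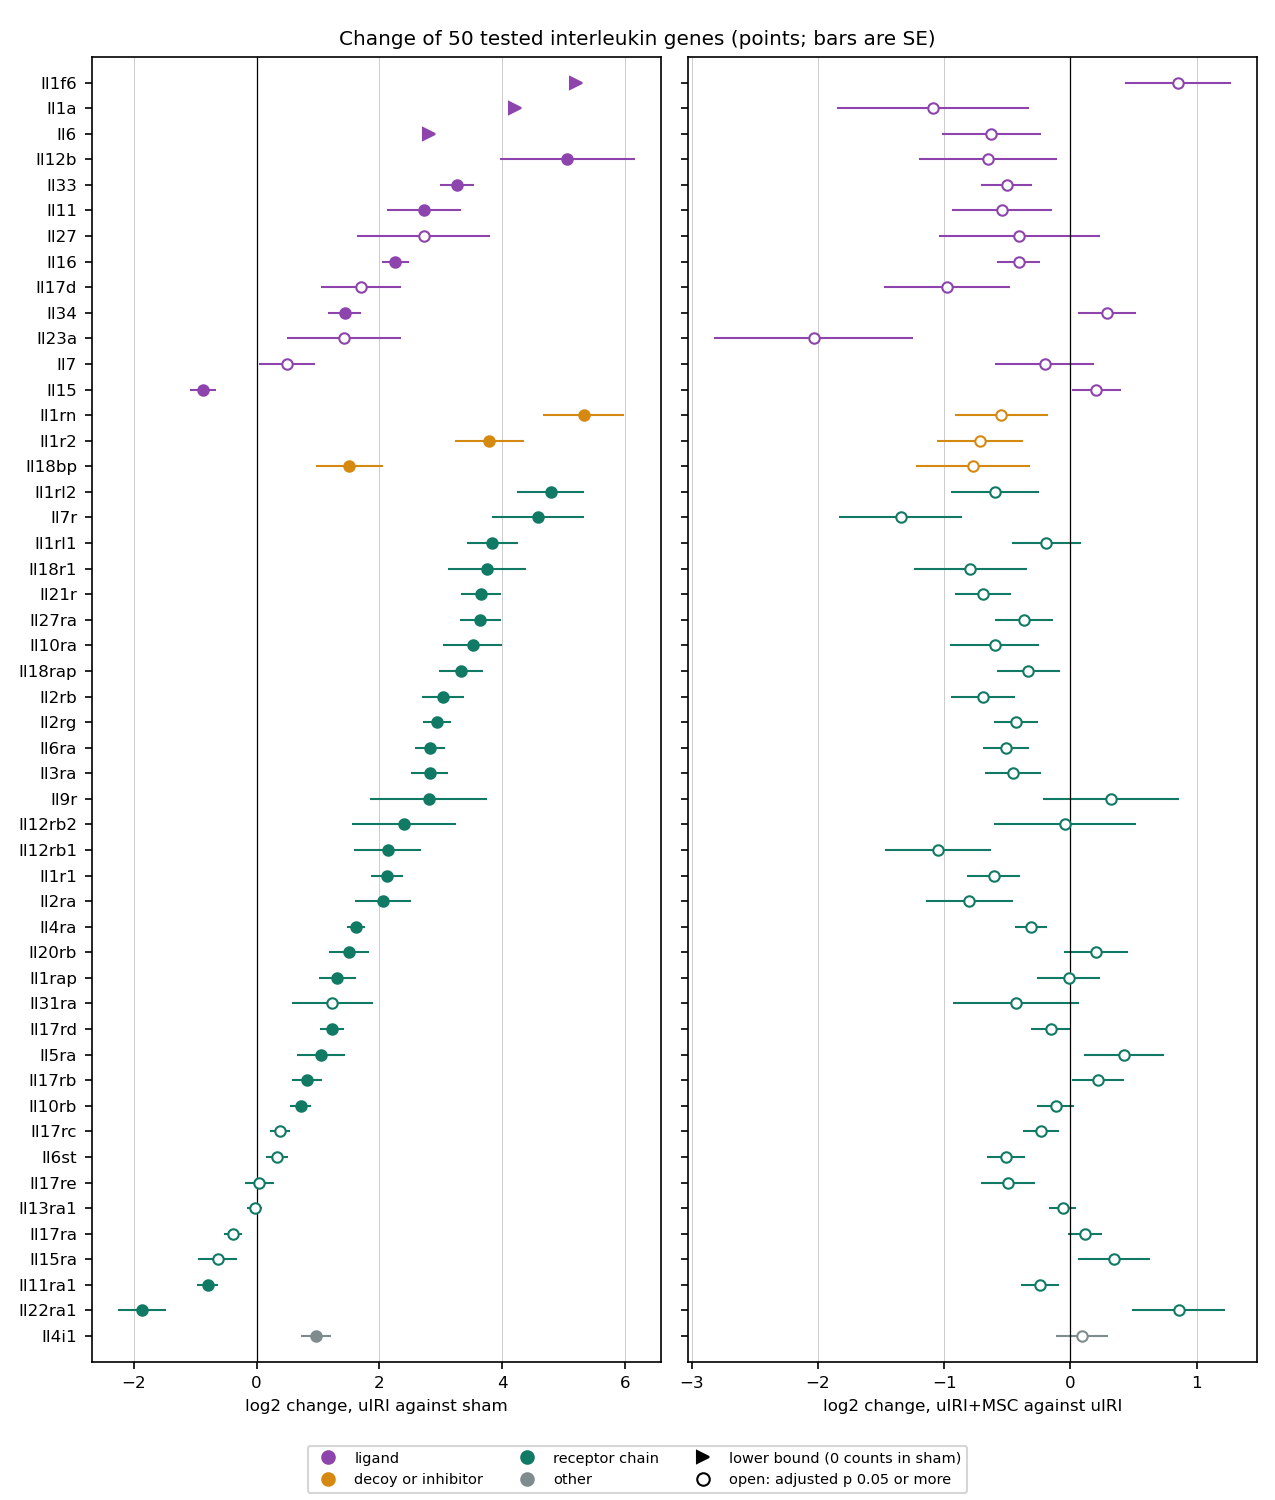
Log2 change of the 50 tested interleukin genes, grouped by role, for uIRI against sham (left) and uIRI+MSC against uIRI (right). Points are fitted log2 changes, bars their SE, filled points passed the test, and triangles are lower bounds for genes with 0 counts in sham. On the left 36 genes passed as higher and 3 as lower, and on the right 39 of 50 lie below 0 and none passed.

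The scaling sets the zero of these changes. Without TMM factors, by library size alone, the median of all tested genes moved from 0.06 to 0.73 and the members moved with it, to 43 higher and 1 lower. Of all 16576 tested genes, 9044 were then called higher and 1989 lower, against 4683 and 4361 with TMM. All changes are given relative to the TMM scaling. FPKM, used here only for levels, is not scaled by TMM.

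Within a group, values follow the order of the library numbers, and the ± after a log2 change is its SE. Among the alarm cytokines of the IL-1 family, Il1f6, which encodes IL-36 alpha, an epithelial activator of the receptor Il1rl2, was at 0 and 0 CPM in sham, 4.04, 4.88 and 7.3 in uIRI and 6.57, 16.3 and 6.38 in uIRI+MSC. Every injured library held it and neither sham library did, and uIRI+MSC 2 was highest. With sham set at 3 counts over the group, it was at least 36.8-fold higher in uIRI (adjusted p = 0.000692). Il1a, the gene of IL-1 alpha, which dying cells release, was at 0 and 0 CPM in sham, 3.74, 1.65 and 2.35 in uIRI and 0.419, 0.429 and 3.02 in uIRI+MSC. It had no count in sham, and among the transplanted kidneys uIRI+MSC 3 stood above the other 2. The bound for uIRI is at least 18.6-fold higher (adjusted p = 0.0113), a call lost without sham 1 (adjusted p = 0.0527).

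Il33 encodes a nuclear alarm cytokine of stromal and epithelial cells that signals through ST2 (Il1rl1). It was at 4.96 and 6.91 CPM in sham, 74.1, 51.7 and 45.9 in uIRI and 38.2, 46 and 37 in uIRI+MSC. No injured library came near sham, and the log2 change was 3.27 ± 0.27 (SE, adjusted p = 5.28e-05). The 2 other ligands of the family in the table, Il1f8 (IL-36 beta) and Il1f9 (IL-36 gamma), had too few counts for the test, with 1 and 48 in all 8 libraries. Il33 (ENSMUSG00000024810, chromosome 19, 29925114 to 29960718) lies apart from the cluster that holds Il1f6.

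The ligands of gp130 were scarce yet absent or nearly so from sham. Il6, which encodes the fever and acute-phase cytokine IL-6, was at 0 and 0 CPM in sham, 0.741, 1.36 and 0.895 in uIRI and 0.628, 0.715 and 0.588 in uIRI+MSC. All 6 injured libraries held reads of it, and the uIRI+MSC libraries lay below those of uIRI. It was at least 7.03-fold higher in uIRI (ENSMUSG00000025746, chromosome 5, 30013114 to 30019981, adjusted p = 0.00122). Il11, the gene of a fibroblast and epithelial cytokine linked to fibrosis, was at 0.194 and 0.276, 1.28, 1.98 and 1.55 and 0.921, 1.72 and 0.672 CPM in the 3 groups. Its sham and uIRI libraries did not overlap, and it rose by 2.73 ± 0.60 on the log2 scale (adjusted p = 0.00495). Il27, the gene of the p28 subunit of IL-27, had 2 counts in sham and a count ratio of 6.63 (95% counting interval 1.74 to 56.3) in uIRI, which did not pass (adjusted p = 0.0603). Its exons overlap Apobr on the other strand, and the strandedness of the libraries is unknown here.

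Il12b encodes the p40 subunit shared by IL-12 and IL-23, made by dendritic cells and macrophages. It stood at 0.0972 and 0 CPM in sham, 2.09, 1.87 and 1.41 in uIRI and 0.377, 1.36 and 1.85 in uIRI+MSC. With 1 count in sham, its count ratio in uIRI was 38.7 (95% counting interval 6.83 to 1538), with an adjusted p of 0.00444. The fitted log2 change of 5.06 was 4.14 without sham 2 and 8.16 without sham 1, when sham held 0 counts. The p19 subunit gene Il23a did not pass (1.43 ± 0.93, adjusted p = 0.221), nor did Il17d (1.70 ± 0.65, adjusted p = 0.0516).

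Il16 and Il34 stand outside these families. Il16, the gene of a chemoattractant for CD4+ cells, was at 7.38 and 5.71, 35.3, 26.6 and 32.3 and 26.3, 24.7 and 19.8 CPM. It rose by 2.26 ± 0.22 (adjusted p = 8.78e-05) with no overlap, while its opposite-strand neighbour Stard5, whose exons it overlaps, fell by 1.54. Il34, the gene of a ligand of the CSF-1 receptor, was at 24 and 23.8, 53.9, 80.9 and 59.3 and 83.5, 98.6 and 55.1 CPM. Both sham libraries were alike and every injured library was above them, with uIRI+MSC 1 and 2 the highest of all. The log2 change in uIRI was 1.44 ± 0.27 (ENSMUSG00000031750, chromosome 8, 110741829 to 110805924, adjusted p = 0.00218).

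Il15, which sustains NK and memory T cells and is made by tubule cells among others, went the other way. It was at 13.5 and 18 CPM in sham, 7.07, 8.76 and 9.98 in uIRI and 9, 10.7 and 10.2 in uIRI+MSC, so that both sham libraries lay above all 6 others. The log2 change in uIRI was -0.88 ± 0.22 (adjusted p = 0.0083). It was -0.63 without sham 2 (adjusted p = 0.0913) and -0.22 by library size alone (adjusted p = 0.407), neither of which passed. Il7, the lymphocyte growth factor gene, did not pass (0.49 ± 0.46, adjusted p = 0.39).

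**Figure D2:**
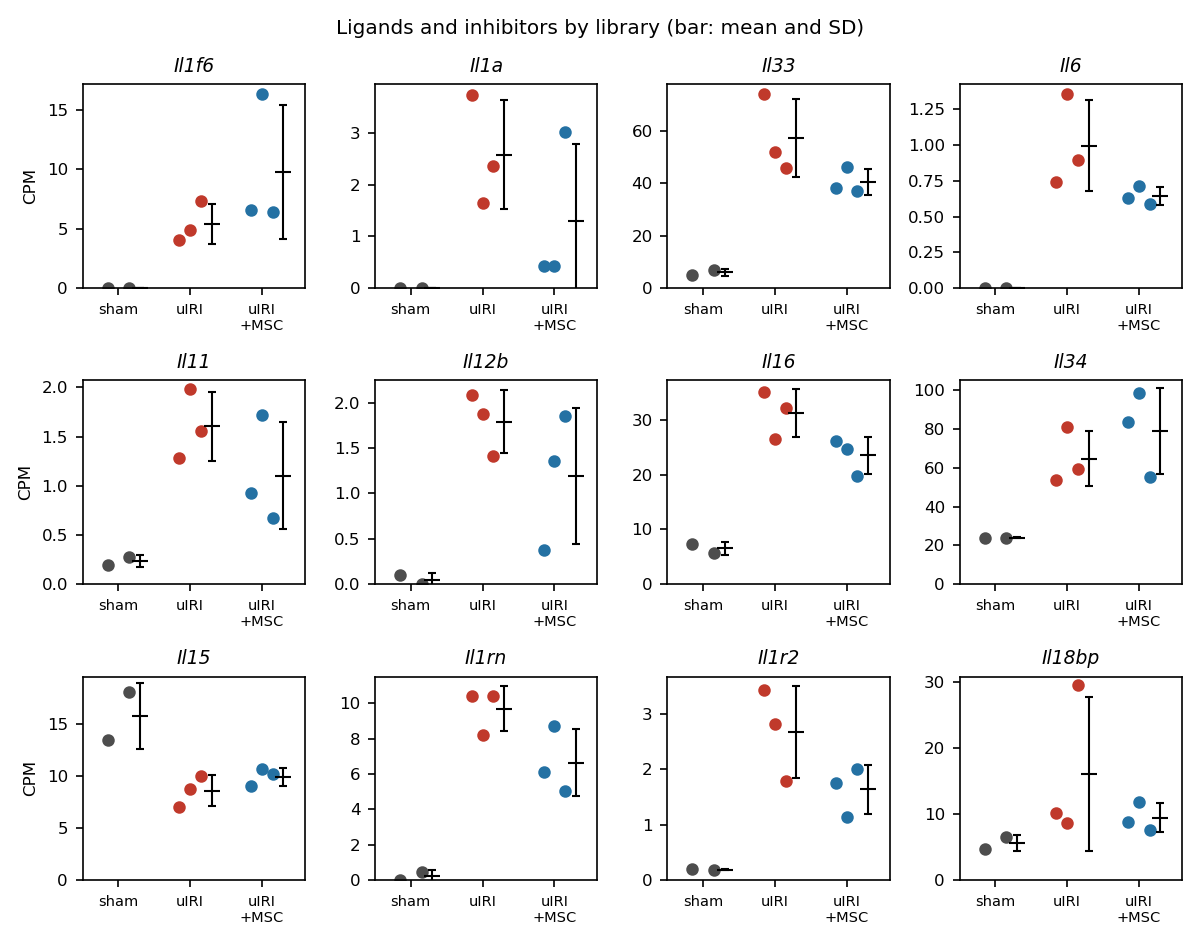
CPM of 9 ligands and 3 inhibitors in each library, with the mean and SD of each group beside the points and each axis starting at 0. Il1f6, Il1a and Il6 lie at 0 in both sham libraries, Il15 is highest in sham, and the Il18bp mean of uIRI is carried by uIRI 3 (29.6 CPM).

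The remaining 21 ligand rows had too few counts to be tested. Il3, Il9, Il17b, Il19, Il20, Il22, Il25 and Il31 had 0 counts in all 8 libraries. Il10, the gene of an anti-inflammatory cytokine, had 0 and 0 counts in sham, 2, 5 and 6 in uIRI and 3, 1 and 1 in uIRI+MSC. It was thus seen in every injured library and in no sham library, but with 3 counts or fewer in 4 of the 6. The T helper cytokine genes were similarly scarce, with totals over all libraries of 8 counts for Il4, 4 for Il5, 5 for Il13, 11 for Il2, 6 for Il21, 2 for Il17a and 31 for Il17f. Il12a, Il24 and Il17c had 25, 7 and 8. Counts of Il2, Il4, Il5, Il13 and Il24 came from uIRI alone, and those of Il12a, Il21 and Il17a from uIRI and uIRI+MSC. The uIRI libraries (18426077 to 24300112 total counts) were deeper than sham (14588506 and 14185677) and uIRI+MSC 2 and 3 (13078851 and 11592986). Bounds for uIRI took sham at 3 counts over the group. They were 0.99-fold for Il2, 0.72 for Il4, 0.63 for Il24, 0.45 for Il13 and 0.36 for Il5, which show no rise. Il17c had counts in every group. Il17f went the other way, at 0.777 and 0.368 CPM in sham and at most 0.286 in any injured library. None of these rows was tested for a difference.

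Of the decoys and inhibitors of the IL-1 family, the 3 that were tested rose, while Il1f5, too low to test, was lower in all injured libraries than in sham. Il1rn, which encodes the IL-1 receptor antagonist, was at 0 and 0.46 CPM in sham, 10.4, 8.21 and 10.4 in uIRI and 6.11, 8.72 and 5.04 in uIRI+MSC. The 6 injured libraries were all above sham, and its log2 change in uIRI was 5.32 ± 0.66 (adjusted p = 0.000256). This rests on few sham counts, being 4.40 without sham 1, while without sham 2 the remaining sham library held 0 counts and the fitted 10.58 is no exact change. Il1r2, the gene of a decoy receptor without a signalling domain, was at 0.194 and 0.184, 3.43, 2.82 and 1.79 and 1.76, 1.14 and 2.02 CPM. Its groups uIRI and sham did not overlap, and it rose by 3.79 ± 0.56 (adjusted p = 0.000622).

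Il18bp, whose product neutralises IL-18, was at 4.76 and 6.54, 10.2, 8.62 and 29.6 and 8.79, 11.9 and 7.64 CPM, so that uIRI 3 alone stood far above the rest. Its log2 change of 1.51 ± 0.54 (adjusted p = 0.0429) was 0.74 without that library (adjusted p = 0.0728). The call was also lost with limma-voom (adjusted p = 0.144), with only the 2 groups compared (adjusted p = 0.0758), and without either sham library or any uIRI+MSC library. It overlaps Numa1, a gene at 253 CPM in both sham and uIRI, on the other strand. Of the inhibitors too low to test, Il1f5, the IL-36 receptor antagonist gene, was at 1.36 and 0.737 CPM in sham, 0.202, 0.44 and 0.424 in uIRI and 0.335, 0.357 and 0.336 in uIRI+MSC. It was the highest of the untested rows in total (66 counts), and both sham libraries lay above all 6 others. Il13ra2, the decoy receptor gene of IL-13, had 1 count in all, in uIRI 1. Il22ra2, the IL-22 decoy gene, and Il1f10 (IL-38) had 8 and 5.

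Every receptor chain of the IL-1 family that was tested rose, 6 of 6, while 28.3% of all tested genes did. With ligands and inhibitors all 12 tested members of the family rose, with a median log2 change of 3.77. Il1rl2, the IL-36 receptor gene, was at 0.486 and 1.57 CPM in sham, 38.5, 27.6 and 20.1 in uIRI and 19.3, 12.4 and 25.4 in uIRI+MSC. Its change was the largest of the receptor chains, 4.79 ± 0.55 (adjusted p = 0.000187), and was 5.89 without sham 2. Il1r1, the signalling receptor of IL-1, was already present in sham, at 13.6 and 14 CPM, and stood at 77.7, 56.4 and 46 in uIRI and 35.8, 34.5 and 48.3 in uIRI+MSC. It rose by 2.12 ± 0.26 (adjusted p = 0.000246), with every injured library above sham.

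Il1rl1, which encodes the IL-33 receptor ST2 of type 2 immune cells, was at 0.777 and 1.29, 17.6, 18 and 9.09 and 12.2, 12.4 and 14.7 CPM, a change of 3.84 ± 0.41 (adjusted p = 0.000138). Both chains of the IL-18 receptor followed. Il18r1 was at 0.486 and 3.59, 40.4, 19.8 and 23.2 and 17.5, 12.4 and 18.2 CPM. The sham libraries differed from each other, so that its change of 3.75 ± 0.64 was 2.97 without sham 1 and 5.84 without sham 2. Il18rap was at 1.07 and 1.57, 15.6, 15.4 and 8.9 and 9.34, 10.8 and 11.7 CPM and changed by 3.33 ± 0.35 (adjusted p = 0.000134). The shared accessory chain Il1rap rose least, by 1.31 ± 0.30 (adjusted p = 0.006).

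These genes largely sit side by side. Il1r2, Il1r1, Il1rl2, Il1rl1, Il18r1 and Il18rap span chromosome 1, 40074079 to 40551705 on GRCm38, in that order, and all 6 rose, by 2.12 to 4.79. This stretch was picked out after the values were seen. Of the 7 tested protein-coding neighbours within 500 kb, Creg2 (4.56), Slc9a4 (2.38) and Map4k4 (1.79) rose, Slc9a2 (-1.52), Mfsd9 (-1.30) and Rnf149 (-0.50) fell, and Tmem182 (0.57, adjusted p = 0.430) did not pass. On chromosome 2, 24153161 to 24351494, lie Il1f8, Il1f9, Il1f6, Il1f5, Il1f10 and Il1rn. Only Il1f6 and Il1rn had enough counts for a test there, and both rose. Beside them Psd4 (4.32) and Ehmt1 (0.59) rose, Hnmt (-1.38) fell and Pax8 (-0.10, adjusted p = 0.661) did not pass.

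**Figure D3:**
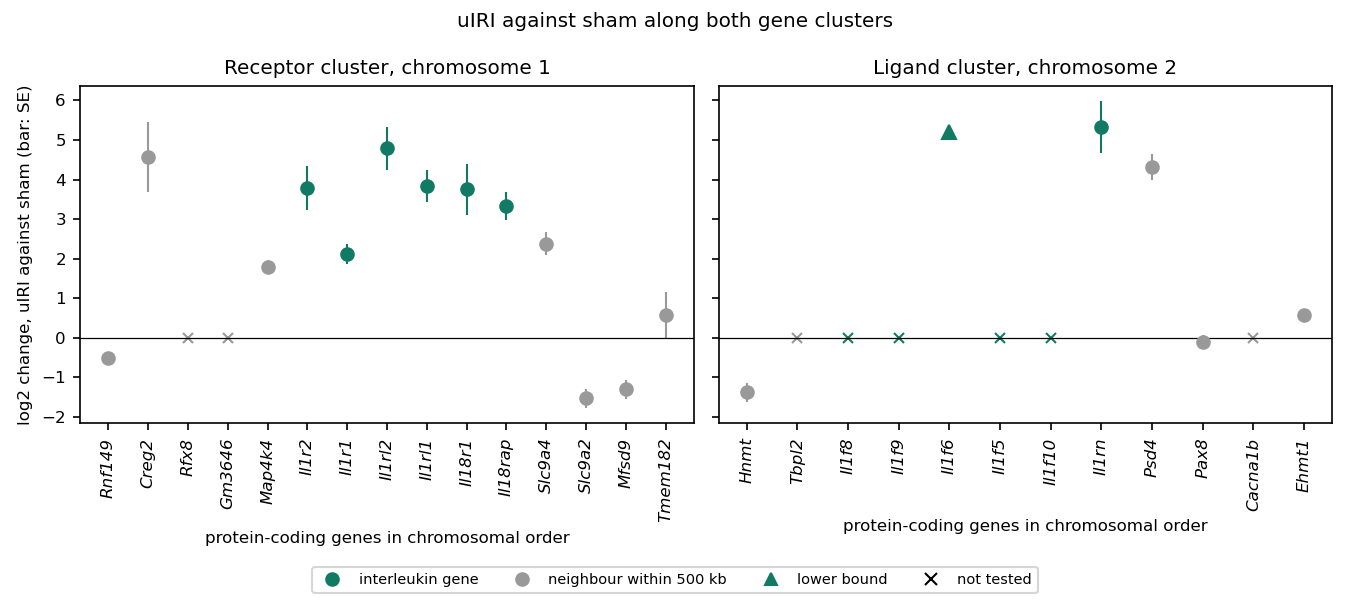
Log2 change in uIRI against sham of protein-coding genes along the receptor cluster of chromosome 1 (left) and the ligand cluster of chromosome 2 (right), in chromosomal order and not to distance. Circles are fitted changes with SE as bars, green for interleukin genes and grey for neighbours within 500 kb, the triangle is a lower bound and crosses, placed at 0, are genes not tested, which have no value. The 6 receptor genes lie between 2.12 and 4.79, and the neighbours on either side lie both above and below 0.

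Chains of the gp130 family were split. Il6ra, which encodes the IL-6 binding chain, was at 4.37 and 6.45 CPM in sham, 41.1, 32 and 41.9 in uIRI and 30.4, 22.7 and 27.6 in uIRI+MSC. The 3 groups did not overlap, and it rose by 2.82 ± 0.24 in uIRI (adjusted p = 5.62e-05). Its partner Il6st, the gene of gp130, was at 254 and 237, 332, 341 and 252 and 224, 194 and 232 CPM. Its uIRI and sham libraries overlapped (0.33 ± 0.17, adjusted p = 0.133), while all 3 uIRI+MSC libraries lay below both other groups. By library size alone Il6st was higher in uIRI, by 1.00 (adjusted p = 0.00112). Il11ra1, the IL-11 binding chain, was at 86.7 and 83, 54.1, 46 and 46.4 and 46.9, 44 and 32.8 CPM. Both sham libraries were above all injured ones, and it fell by a log2 change of -0.80 ± 0.17 (ENSMUSG00000073889, chromosome 4, 41699989 to 41769474, adjusted p = 0.00377), which by library size alone was -0.12 (adjusted p = 0.578). Of the stretches of 100 bases in its longest transcript 26.3% also occur in its near copy Il11ra2, so how reads were shared between the copies bears on its level. Il27ra, a chain of T cells for IL-27, was at 1.07 and 1.75, 22.1, 15.7 and 15.5 and 15.7, 14.7 and 10.7 CPM and rose by 3.64 ± 0.33 (adjusted p = 7.38e-05), while Palm3, which overlaps it on the other strand, fell by 1.60. Il31ra did not pass (1.23 ± 0.66, adjusted p = 0.145).

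Of the 9 receptor chains of the common gamma chain family 7 rose, against 28.3% of all tested genes. The median log2 change of the 9 was 2.80, and Il13ra1 and Il15ra did not pass. Il2rg, the common gamma chain, was at 6.12 and 6.35, 51.7, 37.6 and 54 and 32.3, 41.7 and 32.2 CPM. All injured libraries lay above sham, with a change of 2.93 ± 0.23 and the smallest adjusted p of any member, 4.19e-05. Il7r, the IL-7 receptor gene of T cells and their precursors, was at 1.07 and 0.276, 27.7, 7.11 and 13.5 and 5.23, 6 and 7.89 CPM. The uIRI libraries differed among themselves, with uIRI 1 highest, and the change of 4.58 ± 0.75 (adjusted p = 0.00106) was 3.94 without uIRI 1, 5.85 without sham 1 and 3.93 without sham 2. Il21r was at 1.36 and 2.49, 26.2, 20.9 and 26.2 and 15.4, 18.2 and 11.8 CPM. It encodes the receptor chain for IL-21 on B, T and NK cells, and its 3 groups did not overlap (3.66 ± 0.32 in uIRI, adjusted p = 6.17e-05). Il2rb, shared by IL-2 and IL-15, was at 2.91 and 2.21, 21.3, 17.4 and 24.7 and 14.4, 16.1 and 8.57 CPM and rose by 3.04 ± 0.34 (adjusted p = 0.000165), again without overlap among the 3 groups. Il2ra, which completes the high-affinity IL-2 receptor, rose by 2.06 ± 0.46 (adjusted p = 0.00509). Il9r, with 2 counts in sham, had a count ratio of 7.44 (95% counting interval 1.96 to 63) and an adjusted p of 0.0348.

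The chains for IL-4, IL-13 and IL-15 differed. Il4ra, which binds IL-4 and pairs with Il13ra1 for IL-13, was at 37.7 and 32, 105, 111 and 104 and 93, 89.6 and 75.1 CPM. The 3 groups did not overlap, and it rose by 1.61 ± 0.15 (adjusted p = 7.54e-05). Il13ra1 was at 109 and 119.5, 109.8, 119 and 108 and 102, 106 and 115 CPM, with the libraries of all groups intermixed (-0.03 ± 0.12, adjusted p = 0.867), although by library size alone it was higher in uIRI by 0.64 (adjusted p = 0.00253). Il15ra, which presents IL-15 to neighbouring cells, was at 13.3 and 22.4, 9.73, 9.46 and 15.4 and 11, 15.4 and 17.6 CPM. Its groups overlapped and it did not pass (-0.63 ± 0.32, adjusted p = 0.12). It passed as lower without uIRI 3 (-0.89, adjusted p = 0.0457) and was 0.018 by library size alone.

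In the IL-10 family, Il10ra, the IL-10 binding chain of leukocytes, was at 6.32 and 5.99, 83.8, 38.4 and 89.6 and 27.5, 56.9 and 55.8 CPM. It rose by 3.52 ± 0.48 (adjusted p = 0.000421), with uIRI 2 and uIRI+MSC 1 the lowest of their groups. The shared chain Il10rb was at 42.4 and 45.9, 72.3, 65.3 and 80.5 and 57.7, 64.2 and 79.4 CPM and rose by 0.72 ± 0.17 (adjusted p = 0.00654), a call lost without sham 1 (adjusted p = 0.0534). Il20rb, a chain for IL-19, IL-20 and IL-24, rose by 1.5 ± 0.33 (adjusted p = 0.00463). Il22ra1, through which IL-22 reaches epithelial cells, was at 7 and 4.7 CPM in sham, 0.909, 1.98 and 1.93 in uIRI and 2.43, 3.79 and 2.52 in uIRI+MSC. The 3 groups did not overlap, with uIRI+MSC between the others, and the change of -1.87 ± 0.40 in uIRI (ENSMUSG00000037157, chromosome 4, 135728172 to 135752140, adjusted p = 0.00411) was the largest fall of any tested member. By library size alone it was -1.20 (adjusted p = 0.0222). Il22 itself had no read in any library.

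**Figure D4:**
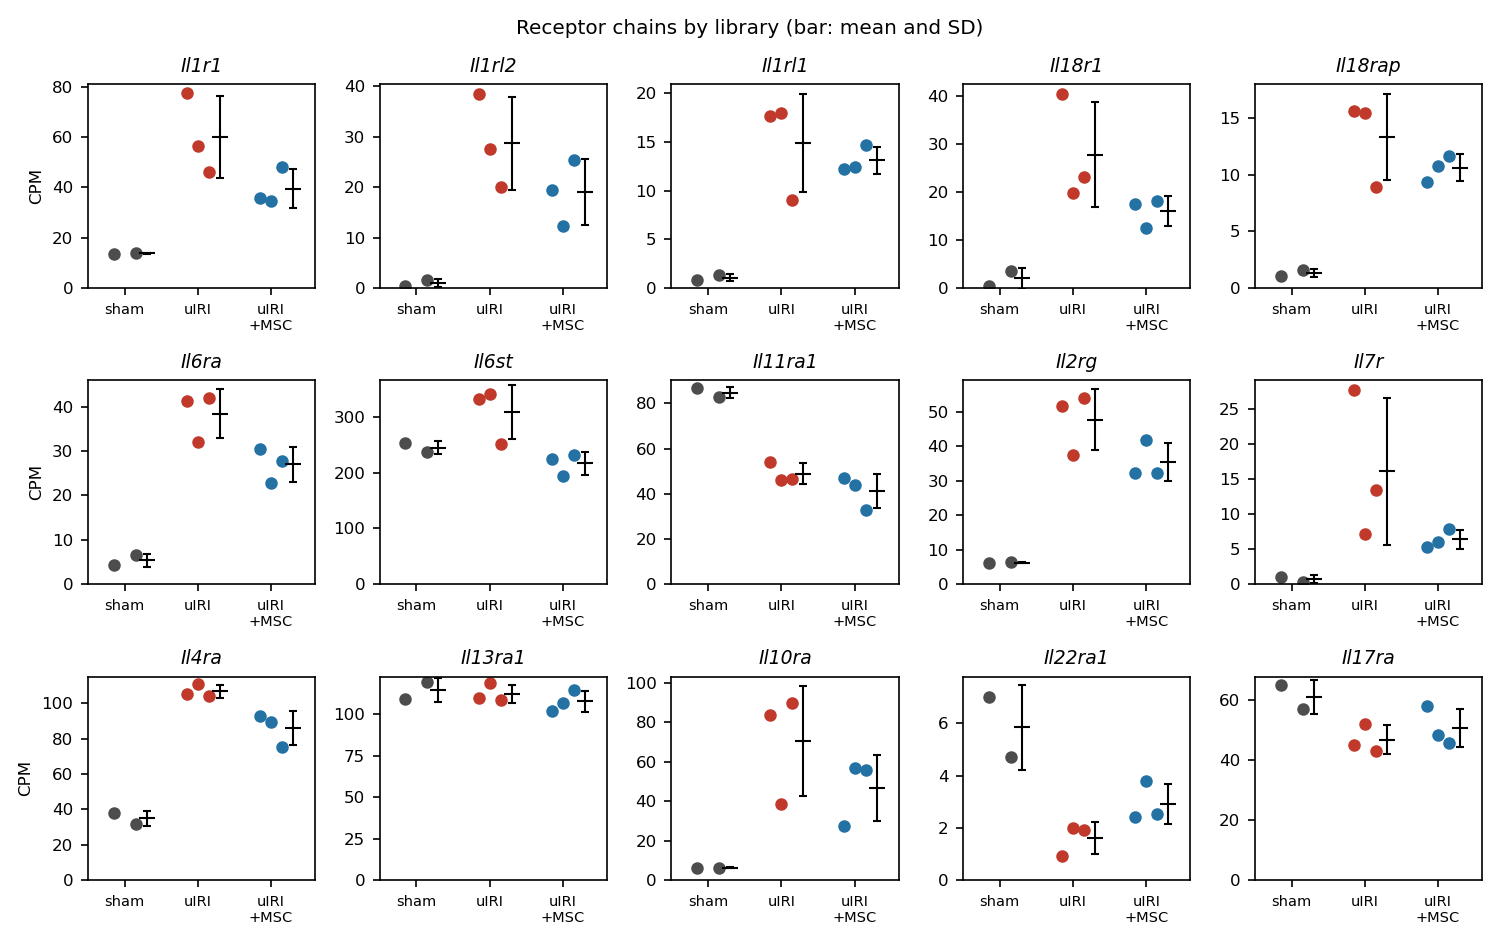
CPM of 15 receptor chains in each library, with the mean and SD of each group beside the points and each axis starting at 0. Il22ra1 and Il11ra1 are highest in sham, Il13ra1 stays between 102 and 119.5 CPM in all 8 libraries, and Il6ra and Il4ra are separated in all 3 groups.

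Of the IL-17 receptor chains 2 of 5 rose, against 28.3% of all tested genes. Il17ra, the chain that all IL-17 receptors share, was at 65 and 57.1, 45.2, 52.1 and 43 and 58, 48.3 and 45.9 CPM. The uIRI libraries lay below sham, but the change of -0.38 ± 0.15 did not pass (adjusted p = 0.0581) and turned to 0.29 by library size alone. It passed as lower without uIRI 2 (adjusted p = 0.0469) and without uIRI+MSC 1 (adjusted p = 0.0453). Its partners Il17rc (28.5 and 29.9, 32.3, 38.9 and 42.3 and 33.9, 34.7 and 27.8 CPM) and Il17re (17.9 and 24.3, 21.6, 16.2 and 27.6 and 14.7, 14.8 and 17 CPM) did not pass either (0.37 ± 0.16 and 0.05 ± 0.24, adjusted p = 0.0808 and 0.888). Il17rc passed as higher without uIRI 1 (adjusted p = 0.0429), without uIRI+MSC 3 (adjusted p = 0.0424) and by library size alone, where Il17re passed too (0.71, adjusted p = 0.0381). Il17rd, a membrane protein also known as an inhibitor of growth factor signalling, was at 17.6 and 24.9, 53.7, 52.3 and 43.1 and 48.7, 45.8 and 39.6 CPM and rose by 1.23 ± 0.19 (adjusted p = 0.000801). Il17rb, the IL-25 receptor gene, was at 14.5 and 11, 16.5, 26.1 and 24.7 and 28, 22.3 and 28 CPM and rose by 0.82 ± 0.24 (adjusted p = 0.0194), while Actr8, which overlaps it on the other strand, fell by 0.53. That call was lost without sham 2, uIRI 2 or uIRI 3 (adjusted p = 0.126, 0.0554 and 0.0516).

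The remaining chains belong to the IL-12 and common beta chain families. Il12rb1 and Il12rb2, which together bind IL-12, rose by 2.14 ± 0.55 and 2.40 ± 0.85 (adjusted p = 0.0101 and 0.0393), while Il23r had too few counts. Il12rb2 had 0 and 6 counts in sham. It overlaps Serbp1, at a mean of 160 CPM in sham and 145 in uIRI, on the other strand. Il3ra, the IL-3 binding chain, was at 1.36 and 2.12, 11.7, 10.7 and 14.6 and 8.04, 10.9 and 7.98 CPM and rose by 2.82 ± 0.30 (adjusted p = 0.000142). Il5ra, the IL-5 binding chain of eosinophils and B cells, was at 5.64 and 3.96, 7.95, 14.1 and 7.72 and 9.34, 12.8 and 18.1 CPM. Its rise of 1.05 ± 0.39 (adjusted p = 0.0466) lost its call with limma-voom (adjusted p = 0.0993) and without sham 1, sham 2, uIRI 2 or uIRI+MSC 2 (adjusted p = 0.0830, 0.215, 0.126 and 0.0630). Il4i1, the oxidase gene, was at 26.3 and 24.7, 57.8, 53.5 and 38.2 and 57.4, 62.3 and 39.8 CPM and rose by 0.97 ± 0.24 (adjusted p = 0.00853, and 0.0536 without sham 2). It overlaps Atf5 on the other strand, which rose by 1.07.

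Levels can be compared between genes only per length, as FPKM. In sham the highest means were those of the receptor chains Il13ra1 (22.7 ± 2.74, SD, n = 2), Il6st (10.3 ± 0.08), Il11ra1 (9.87 ± 0.266), Il17rc (6.33 ± 0.589) and Il10rb (6.16 ± 0.708). Il15 (6.12 ± 1.59) and Il34 (5.08 ± 0.271) were the highest ligands. Il13ra1 lay clear of the rest, while Il17rc, Il10rb and Il15 did not differ beyond their SDs. In uIRI the order was Il13ra1 (35.3 ± 1.41, SD, n = 3), Il34 (21.7 ± 4.06), Il6st (20.6 ± 3.5), Il10rb (16.1 ± 1.88) and Il2rg (15.4 ± 3.23). Il13ra1 was again clear, whereas each of the others overlapped its neighbour in that order within 1 SD. In uIRI+MSC Il13ra1 (30.4 ± 1.4) was again followed by Il34 (24.1 ± 7.16), then by Il10rb (13.3 ± 1.98) and Il6st (13 ± 0.996).

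The comparison of uIRI+MSC with uIRI asks what transplantation changed on top of the injury. No member passed edgeR at an adjusted p of 0.05, and neither did any of the 16576 tested genes (0.0%). Fitted changes were below 0 in 39 of the 50 members, with a median log2 change of -0.42 against -0.01 for all tested genes. At an unadjusted p under 0.05 there were 14 members lower (28.0%) and 1 higher (2.0%), against 9.34 and 11.3% of all tested genes. The uIRI+MSC libraries all lay below the uIRI libraries in 10 members (20.0%) and above in Il22ra1 alone, against 12.7 and 14.1% of all tested genes. Without uIRI+MSC 3 the members' median was -0.37, and without uIRI 1 it was -0.33. With limma-voom 0 genes passed, and leaving out a library called at most 8 of all genes and no member. DESeq2 called 2 members lower, Il6st (-0.53, adjusted p = 0.0263) and Il21r (-0.71, adjusted p = 0.0416). Of all 15603 genes it gave an adjusted p, it called 1342, with 782 higher and 560 lower.

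The members at an unadjusted p under 0.05 were mostly receptor chains. Of lymphocyte receptors, Il7r differed by -1.34 ± 0.49 (adjusted p = 0.182), Il12rb1 by -1.05 ± 0.42, Il2ra by -0.80 ± 0.35, Il2rb by -0.69 ± 0.25, Il21r by -0.69 ± 0.22 and Il2rg by -0.43 ± 0.17. Il7r is the most uneven of these, since uIRI 1 (27.7 CPM) lay far above the other uIRI libraries and uIRI 2 (7.11) within the range of uIRI+MSC. Of the others, Il6st differed by -0.51 ± 0.15 (adjusted p = 0.132), Il6ra by -0.51 ± 0.18, Il1r1 by -0.61 ± 0.21, Il4ra by -0.31 ± 0.12 and Il17re by -0.49 ± 0.21. Among ligands these were Il33 (-0.50 ± 0.20), Il16 (-0.41 ± 0.17) and Il23a (-2.03 ± 0.79). The value of Il23a rests on few reads, with 42, 17 and 13 counts in uIRI, 7, 3 and 1 in uIRI+MSC and 0 and 7 in sham. Il22ra1, the only one above, differed by 0.86 ± 0.37 (adjusted p = 0.234).

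Ligands and inhibitors of the IL-1 family did not pass in this comparison, and their uIRI and uIRI+MSC libraries overlapped. Il1f6 differed by 0.85 ± 0.42 (adjusted p = 0.302), the largest positive fitted value after Il22ra1, and rested on uIRI+MSC 2. Il1a differed by -1.09 ± 0.76 (adjusted p = 0.457), Il1rn by -0.55 ± 0.37 (adjusted p = 0.433) and Il6, of the gp130 family, by -0.63 ± 0.39 (adjusted p = 0.407). A p that misses the threshold does not show that the groups were alike. The macrophage, dendritic and eosinophil sums given above were also lower in uIRI+MSC than in uIRI, without overlap. The eosinophil sums came close, with 1.69 in uIRI 2 and 1.55 in uIRI+MSC 1. Of the 5 dendritic markers 1 had a fitted change above 0 (0.24). The sums of T cells, neutrophils and fibroblasts were lower with overlap. The proximal tubule sum was higher without overlap, and the NK and B cell sums were intermixed. The part of these cells in the values here was not tested.

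Against sham, transplanted kidneys still had 32 members higher (64.0%) and 2 lower, Il15 (-0.67 ± 0.22, adjusted p = 0.0358) and Il11ra1 (-1.04 ± 0.17, adjusted p = 0.00171), while 22.1% of all tested genes were higher and 20.3% lower. The members' median log2 change was 1.72, against 0.03 for all tested genes. The call of Il15 was lost by library size alone (adjusted p = 0.568), with no filter (0.0517) and without sham 1, sham 2, uIRI 2 or any uIRI+MSC library (0.0532 to 0.278). Both comparisons with sham use the same 2 sham libraries, so their values are set side by side and not counted as separate evidence. Il1f6 was at least 65.3-fold higher and Il6 at least 4.53-fold (adjusted p = 0.000718 and 0.00424). Il33 was higher by 2.77 ± 0.27, Il34 by 1.73 ± 0.27, Il1rl1 by 3.65 ± 0.41 and Il2rg by 2.50 ± 0.22. The bound for Il1a was at least 7.37-fold, most of it from uIRI+MSC 3, and its call was lost with limma-voom (adjusted p = 0.0590), with legacy=FALSE (0.0825) and without sham 1 (0.132), sham 2 (0.119) or uIRI 3 (0.0545). Of the members called higher in uIRI 4 did not pass here, Il18bp (0.74 ± 0.54, adjusted p = 0.299), Il12rb1 (1.09 ± 0.56, 0.146), Il12rb2 (2.36 ± 0.86, 0.0543) and Il2ra (1.26 ± 0.47, 0.0584), nor did Il22ra1 (-1.01 ± 0.40, 0.0705, and 0.0358 without uIRI 1). Calls of Il5ra, Il10rb and Il17rb were lost without sham 2 (adjusted p = 0.10, 0.0586 and 0.0691), and those of Il7r, Il11 and Il12b with limma-voom (0.0849, 0.0522 and 0.0510) or without sham 2 (0.0631, 0.0746 and 0.0878). Without sham 1 those of Il5ra, Il10rb and Il11 were lost as well (adjusted p = 0.0515, 0.11 and 0.125). The difference between both comparisons is the contrast of uIRI+MSC with uIRI, in which none of these passed.

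Genes that work with the members but carry other names were taken from lists, whose counts stand beside 28.3% of all tested genes higher and 26.3% lower in uIRI. These lists were chosen with earlier results of these data known, so the shares are descriptions only. Socs3, Nfkbiz and Zc3h12a are repeated between lists. Of 17 partner cytokines and chains, 14 rose in uIRI and Ctf1 fell (-0.79), with a median of 2.93. The gp130 ligand gene Lif (4.63 ± 0.34) rose, as did the oncostatin M receptor gene Osmr (4.08 ± 0.35), whereas the gp130 partner Lifr did not pass (-0.09 ± 0.12, adjusted p = 0.558). Csf2rb, the chain that pairs with Il3ra and Il5ra, rose by 3.74 ± 0.32, Csf1r, the receptor of IL-34, by 1.66 ± 0.23, and Ebi3, the partner subunit of Il27, by 2.93 ± 0.40. Of 24 Janus kinase, STAT and inhibitor genes 14 rose and Socs7 fell (-0.55), with a median of 0.48. Socs3, the feedback inhibitor of gp130, rose by 4.60 ± 0.33, Stat3 by 1.32 ± 0.13, Stat4, which transmits IL-12 signals, by 3.49 ± 0.43, and Jak3, which binds the common gamma chain, by 1.54 ± 0.14.

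Of 24 genes of IL-1 and IL-17 receptor signalling 12 rose and 4 fell, with a median of 0.41, against 28.3 and 26.3% of all tested genes. The rises included Irak3, an inhibitory kinase homologue (2.61 ± 0.43), Nfkbiz (2.48 ± 0.21), Nfkb1 (1.74 ± 0.13) and Myd88 (1.13 ± 0.16). The falls were Sigirr, an inhibitory receptor of the family (-1.86 ± 0.30), the kinase gene Chuk (-1.82 ± 0.16), Irak1 (-0.54 ± 0.13) and Tollip (-0.46 ± 0.13). Genes that these cytokines are known to induce were higher as counts. For IL-6 8 of 9 tested of 12 listed rose, such as Timp1 (6.33 ± 0.68) and Hp (3.28 ± 0.57). The other did not pass, with a fitted change of -0.92 and all uIRI libraries below sham. For IL-4 and IL-13 8 of 10 tested of 12 listed rose, such as Mrc1 (4.73 ± 0.34) and Mgl2 (3.45 ± 0.36), which also mark macrophages, while Chil3 did not pass (0.57 ± 0.98, adjusted p = 0.645). For IL-17 all 10 listed rose, such as Lcn2 (6.11 ± 0.35) and S100a8 (3.58 ± 0.62), the latter also a neutrophil marker. Other signals induce these genes too, and none of them passed in uIRI+MSC against uIRI.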

How the data were processed

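Messenger RNA of 8 mouse kidney libraries was analysed from the deposited table. Per the file headers, its count columns hold raw reads per gene made by the authors before deposit, and its FPKM columns hold values the authors scaled by gene length and depth. The submitters' processing notes name HISAT2 2.0.4, StringTie 1.3.3b and other tools on GRCm38. The sources used here name neither the counting program nor the strand, so opposite-strand overlaps cannot be told apart.

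Counts were used for all tests and FPKM only for levels between genes. Genes passing filterByExpr (minimum count 10; 16576 genes) were fitted over all 8 libraries in edgeR 4.0.16 (R 4.3.3) with TMM factors and the quasi-likelihood test (legacy=TRUE, 5 residual degrees of freedom). Adjustment followed Benjamini and Hochberg over every gene tested, with a threshold of 0.05. The SE is the log2 change over the square root of F. With 0 counts in sham, folds are lower bounds with 3 counts over the group, and with 1 to 3 counts they are ratios with an exact 95% interval. These cover counting error only. The fit was tested on simulated data.

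The members and the gene, marker and motif lists were chosen with earlier results of these data known. Values per library are given for members named in a fixed list, with a group mean FPKM of at least 2, or among the 4 largest changes of their role and direction in uIRI against sham (41 members). Alternatives were DESeq2 1.42.0, limma-voom (limma 3.58.1), legacy=FALSE, other scalings and filters, only the 2 groups compared, a replicate block, and leaving out each library. Of the 83 rows 81 are in the reference annotation by gene identifier, 65 with an identical span. Plots used matplotlib 3.10.9 (Python 3.11.15).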

Additional observations from a re-analysis of the deposited data

How the results depend on the processing

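Counts of members called kept within 1.5 times of their value under most alternatives. Counts over all tested genes moved too. Those called higher in uIRI against sham went from 4683 as reported to 3970 without uIRI 1 and 5198 without uIRI+MSC 3. Members higher in uIRI against sham ranged from 30 to 37 when a library was left out and members lower from 3 to 4. Against sham, uIRI+MSC had 26 to 33 higher and 1 to 3 lower, and uIRI+MSC against uIRI had 0 in either direction. The lower counts were the exceptions. By library size alone 1 member was lower in uIRI (3 as reported, 3 or 4 under every other alternative) and 1 in uIRI+MSC against sham (2 as reported), where no filter also gave 1 and so did leaving out sham 1, sham 2, uIRI 2 or any uIRI+MSC library. DESeq2 called 2 lower in uIRI+MSC against uIRI (0 under all others). Over the log2 changes of the members given by library and all alternatives, 1896 kept direction and side of the threshold. Of the rest 52 lost a call, 13 gained one and 19 changed sign.

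None of the changes that turned sign had passed before, Il13ra1 by library size alone passed after turning, and the cause was not tested. By library size alone, uIRI against sham became 0.64 for Il13ra1, 0.018 for Il15ra and 0.29 for Il17ra. In uIRI+MSC against sham it gave 0.42 for Il13ra1, 0.21 for Il15ra, 0.25 for Il17ra, 0.059 for Il17re and 0.34 for Il6st. In uIRI+MSC against uIRI it gave -0.033 for Il17ra and -0.059 for Il4i1. Leaving out each library gave -0.068 to 0.062 for Il13ra1 and -0.16 to 0.31 for Il17re in uIRI against sham, with Il17re below 0 without sham 1 (-0.14) or uIRI 3. In uIRI+MSC against sham it gave -0.12 to 0.013 for Il13ra1 and -0.58 to 0.17 for Il15ra. In uIRI+MSC against uIRI it gave -1.08 (without uIRI 2) to 0.00071 (without uIRI 3) for Il18bp, and -0.067 to 0.28 for Il4i1.

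Libraries of the same number did not vary together (correlations of deviations -0.05, 0.07 and -0.09 for uIRI and uIRI+MSC 1, 2 and 3), and 0 of 3 uIRI libraries correlated best with its own number. A replicate block gave 32 members higher and 4 lower in uIRI, 30 and 2 in uIRI+MSC against sham, 0 in uIRI+MSC against uIRI, and -0.10 for Il17re in uIRI. Among members given by library it called Il15ra lower in uIRI (-0.80, adjusted p = 0.0309), and did not call Il17rb, Il5ra and Il18bp in uIRI (adjusted p = 0.0631, 0.107 and 0.136) or Il1a and Il5ra in uIRI+MSC against sham (0.0776 and 0.0529).

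A fit with 1 sham library left takes its spread from the other groups. At this depth 21 of 34 ligand rows had too few counts for a test, 8 of them none at all.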
